A study of Mus musculus with 11 samples.

Results

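The MAP kinase phosphatase, Sprouty and Spred genes were examined in thymocytes lacking ZMAT3, or ZMAT3 together with PUMA and p21. The set held 10 genes, Dusp1, Dusp2, Dusp4, Dusp5, Dusp6, Dusp10, Spry1, Spry2, Spred1 and Spred2, of the 54418 genes in the count table. They were listed by family and matched to the table by their GENCODE names. The family was chosen by measured values: Dusp1, Dusp5 and Spry1 were among the genes the study named from its comparison of TKO with wt thymocytes. Differences against wt are therefore given here as a description, with no p-value and with the genes past the study's thresholds only counted beside the share of all genes, and the comparison of TKO with Zmat3-/- thymocytes is tested. The latter comparison was not the one behind the choice but shares its TKO mice, so its p-values are not independent of the choice.

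RNA-seq was performed on thymocytes (T cells developing in the thymus) from 4 wild-type (wt) mice, 4 Zmat3-/- mice and 3 Puma-/-p21-/-Zmat3-/- (TKO) mice aged 8 to 12 weeks. Every mutant mouse was a constitutive Zmat3 knockout, and the TKO mice, bred by intercrossing Zmat3-/- with Puma-/-p21-/- animals, also lacked Puma (Bbc3) and p21 (Cdkn1a). All mice were kept on a C57BL/6-WEHI background. The RNA came from mashed whole thymus without sorting of cells, and mice lacking Puma or p21 alone were not analysed here, so the contributions of PUMA and p21 cannot be told apart.

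Signals from the T cell receptor and from growth factor receptors run through RAS to the MAP kinases ERK, JNK and p38. Dual-specificity phosphatases of the MAP kinase phosphatase class switch these kinases off by removing phosphate from both the threonine and the tyrosine of their activation loop. Sprouty and Spred proteins act further upstream, at RAS and RAF. Many of these genes are themselves switched on by ERK and so form a feedback loop, and in the thymus the strength of ERK signalling bears on positive and negative selection.

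The upstream sequences of Dusp1, Dusp5 and Spry1 are shown because these were the members that stood highest in both mutant genotypes relative to wt. RefSeq promoter sequence (GRCm38.p6) was matched for 9 of the 10 members (all but Dusp4). The 250 bases before each start site are given, read 5′ to 3′ on the strand of the gene, and capitals mark the letters of a motif found by search.
Dusp1, chr17:26508473-26508722, minus strand: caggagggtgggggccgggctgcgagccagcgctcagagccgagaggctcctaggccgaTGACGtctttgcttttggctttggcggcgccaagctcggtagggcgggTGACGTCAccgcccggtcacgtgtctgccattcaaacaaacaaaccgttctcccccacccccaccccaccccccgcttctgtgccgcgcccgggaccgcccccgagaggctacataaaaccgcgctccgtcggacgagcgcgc
Dusp5, chr19:53528895-53529144, plus strand: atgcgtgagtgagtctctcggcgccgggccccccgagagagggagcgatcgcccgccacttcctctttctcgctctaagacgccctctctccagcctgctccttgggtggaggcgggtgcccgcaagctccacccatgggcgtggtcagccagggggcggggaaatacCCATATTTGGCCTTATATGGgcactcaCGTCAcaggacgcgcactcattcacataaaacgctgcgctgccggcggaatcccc
Spry1, chr3:37639697-37639946, plus strand: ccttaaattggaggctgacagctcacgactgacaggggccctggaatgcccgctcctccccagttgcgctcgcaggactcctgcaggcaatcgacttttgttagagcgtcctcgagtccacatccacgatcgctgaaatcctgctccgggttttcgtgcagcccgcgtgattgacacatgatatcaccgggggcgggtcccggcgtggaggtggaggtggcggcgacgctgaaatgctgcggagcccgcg

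The motifs were chosen with the expression values known and were searched on both strands over the 300 bases from 250 before to 50 after the start. The full cAMP response element, TGACGTCA, was found 143 bases before the start of Dusp1 and in no other member, and in 1.79% of all 32851 promoters. Its half-site TGACG, which the full element holds on both strands in overlap, was found in 4 of 9 members (Dusp1, Dusp2, Dusp5 and Spred2) and in 20.8% of all promoters. Dusp1 held a further half-site 191 bases before its start. The CArG box, the site of serum response factor, occurred at 82 and 72 bases before the start of Dusp5, as 2 adjoining matches, in no other member and in 1.63% of all promoters. Neither the AP-1 letters TGANTCA (7.81% of all promoters) nor TATAAA (13.6%) occurred in the window of any member. A match describes letters in this window, and the binding of any factor was not measured.

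The libraries held 17669715 to 80207003 estimated counts, and every member was tested in all 3 comparisons, with a lowest count of 57, for Spry1 in wt mouse 3. Levels are given in CPM, counts scaled by library size with TMM factors. Zmat3 was counted at 9.88 to 26.8 CPM in wt, 5.34 to 6.85 CPM in Zmat3-/- and 7.78 to 8.25 CPM in TKO mice, so its transcript was lower in the mutants but still present. Cdkn1a was at 3.53 to 10.4 CPM in wt, 4.77 to 8.53 CPM in Zmat3-/- and 2.49 to 3.52 CPM in TKO mice. Bbc3 was at 16.8 to 20.1, 15.3 to 19.8 and 12.9 to 15.2 CPM, so every TKO mouse was below all other mice for both genes, by a narrow gap, and both transcripts were still counted. All 12 thymocyte markers were detected, with a summed level of 12067 to 15146 CPM in wt, 12287 to 14545 CPM in Zmat3-/- and 13107 to 17192 CPM in TKO mice. The 17 markers of thymic stroma summed to 198 to 317, 242 to 265 and 212 to 251 CPM, in the same order. Of these sums Pecam1 alone held 94.2 to 142 CPM, while the endothelial genes Cdh5, Kdr and Plvap were at 0.334 to 4.17 CPM. The stroma sum therefore says little about the other stromal genes. The 13 myeloid markers summed to 198 to 384, 266 to 369 and 172 to 407 CPM. The 6 B cell markers summed to 484 to 849, 463 to 509 and 516 to 534 CPM, of which Ighm alone held 400 to 740 CPM. The 5 erythroid markers summed to 634 to 5926, 858 to 4212 and 2036 to 2687 CPM. For the 6 markers of mature thymocytes the sums were 739 to 949, 724 to 809 and 726 to 858 CPM. Within the stroma list, 10 of 15 genes tested had a positive log2FC in Zmat3-/- against wt thymocytes, with a median of 0.59, 6 at an unadjusted p-value under 0.05 (as had 16.1% of all genes) and 0 called, and in TKO against wt thymocytes 8 of 15 had one, with a median of 0.041. The fibroblast genes Lum (1.74), Col3a1 (1.30), Col1a2 (1.28), Col1a1 (1.02) and Dcn (0.70) had these positive log2FC in Zmat3-/- mice. In TKO mice the values were 0.88, 1.09, 0.98, 0.76 and 0.30 in the same order. Only TKO mice 1 and 2 were above every wt mouse for these genes. TKO mouse 3 lay within the wt range for Lum, Col1a2 and Col1a1. It was below every wt mouse for Col3a1 (1.20 CPM, lowest wt mouse 1.74 CPM) and Dcn (2.63 CPM, lowest wt mouse 5.10 CPM). The 5 genes of the list with a negative log2FC in Zmat3-/- mice were the epithelial genes Ccl25 (-0.59), Epcam (-0.53), Aire (-0.24) and Psmb11 (-0.090) and the endothelial gene Pecam1 (-0.12), which were also negative in TKO mice (-0.69, -0.36, -0.69, -0.36 and -0.20). The other epithelial and endothelial genes tested were positive in Zmat3-/- mice: Kdr (0.78), Foxn1 (0.63), Plvap (0.59), Krt8 (0.12) and Krt5 (0.079). In TKO mice Foxn1 (0.44) and Krt5 (0.041) were positive, Krt8 (-0.060) and Plvap (-0.00013) negative, and Kdr was not tested. These stromal genes were singled out after their values were seen. No list had a gene at 0 in every mouse of a genotype, and the part of these cells in the results was not tested. In such bulk samples, fewer cells of a type and less RNA per cell cannot be told apart.

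The wt libraries fell into pairs, a split that ran through much of the transcriptome. Across 13522 genes the correlation of log2 CPM was 0.982 between wt mice 1 and 2 and 0.982 between wt mice 3 and 4, but only 0.895 to 0.924 between the pairs. It was 0.984 to 0.990 among Zmat3-/- and 0.971 to 0.983 among TKO mice. The wt pairs also differed in Xist, whose level was at least 505 CPM in the pair numbered 1 and 2 of both wt and Zmat3-/- mice and in TKO mouse 1, while the remaining mice had at most 2.54 CPM. The pairs were separated by at least 1.5-fold for 46.5% of genes in wt and, with the same numbering, for 4.55% in Zmat3-/- mice. Over 4 bins of equal size by transcript length, from shortest to longest, the median log2 ratio of wt mice 1 and 2 over wt mice 3 and 4 ran from 0.72 through 0.28 and -0.065 to -0.56. Dusp1, Dusp2, Dusp4, Spred1 and Spred2 separated the wt pairs by at least 1.5-fold, which is 5 of 10 members and close to the share of all genes, and no member did so in Zmat3-/- mice. The cause of the wt split was not tested. The differences of the 10 members from wt are therefore also given against either pair of wt mice, an alternative chosen after the values were seen. Differences of other genes from wt are against all 4 wt mice only.

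Dusp1, Dusp5 and Spry1, like Dusp4, were higher in every mutant mouse than in any wt mouse. Dusp1 encodes a nuclear phosphatase that is induced within minutes of a stimulus and acts mainly on p38 and JNK. It lies on chromosome 17 at 26505590 to 26562128 (GRCm38, minus strand). Its level was 32.6, 33.3, 15.8 and 14.3 CPM in wt mice 1 to 4, 113, 123, 105 and 123 CPM in Zmat3-/- mice 1 to 4, and 124, 107 and 154 CPM in TKO mice 1 to 3. The highest wt mouse was far below the lowest mutant mouse, and the Zmat3-/- and TKO ranges overlapped. The log2FC was 2.29 (SE 0.285) in Zmat3-/- and 2.37 (SE 0.322) in TKO against wt thymocytes. Against wt mice 1 and 2 alone the log2FC was 1.83 and 1.93, and against wt mice 3 and 4 alone it was 2.93 and 3.03. Compared only among mice with high Xist, the level of Dusp1 was 3.59-fold that of wt in Zmat3-/- mice and 3.76-fold in the only such TKO mouse, and among mice with low Xist (2 of each genotype) it was 7.59-fold and 8.71-fold.

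Spry1, a Sprouty protein that restrains receptor-driven RAS-ERK signalling, lies on chromosome 3 at 37639947 to 37644598. Its level was 4.22, 4.05, 2.36 and 3.38 CPM in wt, 9.61, 10.6, 12.6 and 15.1 CPM in Zmat3-/-, and 13.4, 17.2 and 16.6 CPM in TKO mice. The wt mice did not overlap either mutant group. The log2FC against wt was 1.78 (SE 0.224) in Zmat3-/- and 2.12 (SE 0.237) in TKO thymocytes. It was 1.54 and 1.90 against wt mice 1 and 2, and 2.03 and 2.38 against wt mice 3 and 4. In contrast to Dusp1, Spry1 separated the wt pairs by less than 1.5-fold. Its folds over wt were 2.45 in Zmat3-/- mice and 3.24 in the TKO mouse with high Xist, and 4.82 and 5.88 with low Xist.

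Dusp5 encodes a nuclear phosphatase that is selective for ERK. The gene lies on chromosome 19 at 53529109 to 53542431. It was counted at 49.0, 50.7, 38.6 and 34.5 CPM in wt, 106, 105, 86.3 and 76.8 CPM in Zmat3-/-, and 104, 137 and 222 CPM in TKO mice. All mutant mice were above all wt mice, and TKO mouse 3, the most deeply sequenced library, was the highest of the 11. The log2FC against wt was 1.12 (SE 0.155) in Zmat3-/- and 1.77 (SE 0.233) in TKO thymocytes. The smaller of these remained under the threshold of 1.5 against either wt pair (0.92 and 1.34), and the larger was above it against both (1.59 and 1.99). Its folds over wt were 2.12 in Zmat3-/- mice and 2.08 in the TKO mouse with high Xist, and 2.23 and 4.90 with low Xist.

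**Figure D1:**
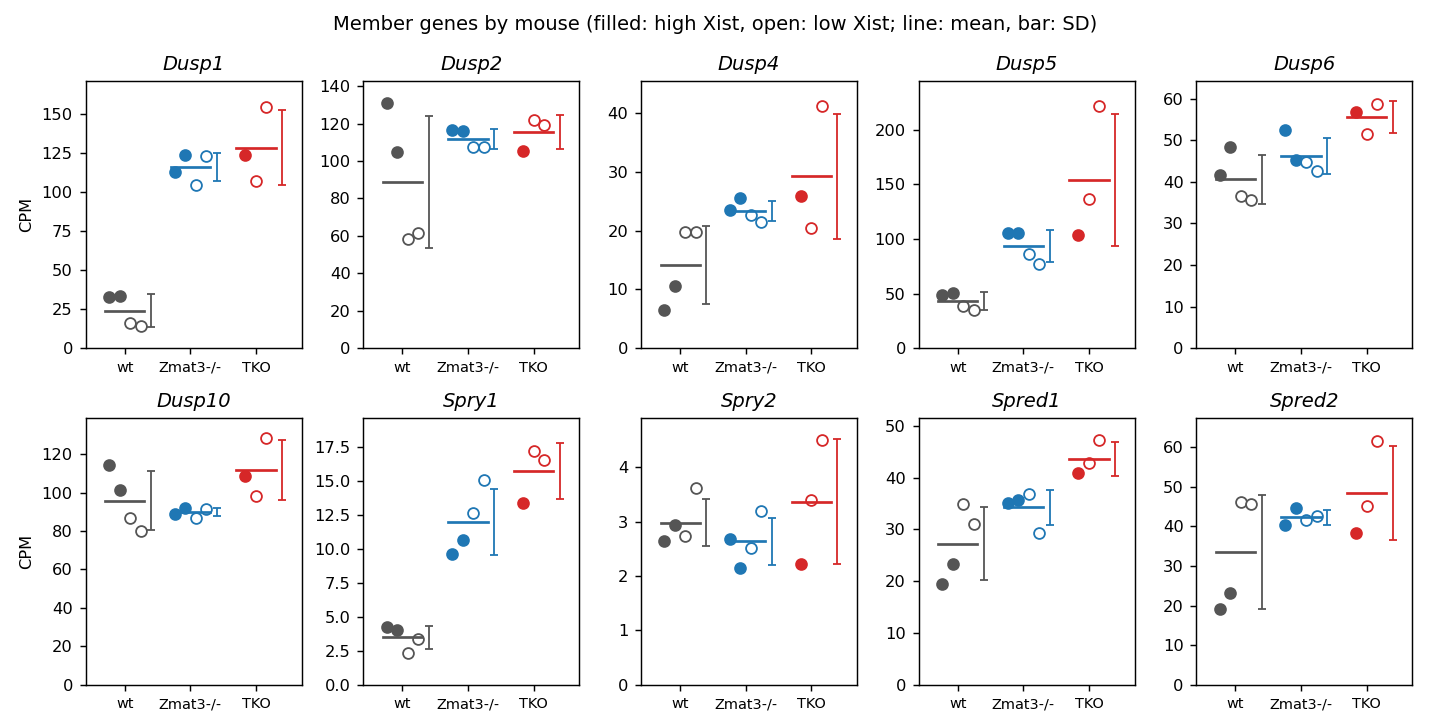
Level of each member gene in CPM (linear axis from 0) for every mouse of the 3 genotypes, with filled circles for mice with high Xist, open circles for mice with low Xist, a line for the mean and a bar for the SD. Dusp1, Dusp4, Dusp5 and Spry1 show no overlap of the wt mice with either mutant group, and Dusp1, Dusp2, Dusp4, Spred1 and Spred2 show wt mice 1 and 2 apart from wt mice 3 and 4.

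The other nuclear phosphatases differed between the wt pairs. Dusp2, which is induced in activated lymphocytes, was at 131, 105, 58.2 and 61.3 CPM in wt, 116, 116, 107 and 107 CPM in Zmat3-/-, and 105, 122 and 119 CPM in TKO mice. The wt mice thus reached from the lowest to the highest level of the 11. The log2FC of Dusp2 against all wt mice was 0.35 (SE 0.244) in Zmat3-/- and 0.34 (SE 0.289) in TKO thymocytes. It was -0.060 and -0.049 against wt mice 1 and 2 and 0.89 in both genotypes against wt mice 3 and 4, so its direction turned with the pair.

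Dusp4, a nuclear phosphatase of ERK and JNK, ran the other way within wt. Its level was 6.56, 10.6, 19.7 and 19.8 CPM in wt, 23.5, 25.5, 22.7 and 21.4 CPM in Zmat3-/-, and 25.9, 20.5 and 41.1 CPM in TKO mice. Every mutant mouse was above every wt mouse, by little for TKO mouse 2 against wt mouse 4. The log2FC against wt was 0.72 (SE 0.331) in Zmat3-/- and 0.98 (SE 0.400) in TKO thymocytes. It was 1.45 and 1.73 against wt mice 1 and 2, and 0.22 and 0.49 against wt mice 3 and 4.

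Dusp6 and Dusp10 differed less. Dusp6, the cytoplasmic phosphatase of ERK, was at 41.7, 48.3, 36.7 and 35.6 CPM in wt, 52.4, 45.1, 44.7 and 42.5 CPM in Zmat3-/-, and 56.7, 51.4 and 58.6 CPM in TKO mice. The TKO mice were above all wt mice and the Zmat3-/- mice overlapped them. Its log2FC was 0.41 (SE 0.135) in TKO and 0.19 (SE 0.117) in Zmat3-/- against wt thymocytes, 0.28 and 0.054 against wt mice 1 and 2, and 0.56 and 0.34 against wt mice 3 and 4. Dusp10, which acts on JNK and p38, was at 114, 101, 86.9 and 79.9 CPM in wt, 89.0, 91.9, 87.0 and 91.2 CPM in Zmat3-/-, and 108, 98.3 and 129 CPM in TKO mice. The wt range spanned the whole Zmat3-/- range, and the log2FC was -0.084 (SE 0.113) in Zmat3-/- and 0.18 (SE 0.147) in TKO thymocytes. In Zmat3-/- thymocytes its direction turned with the pair, from -0.25 against wt mice 1 and 2 to 0.087 against wt mice 3 and 4, and in TKO thymocytes the values were 0.024 and 0.36.

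The remaining Sprouty gene, Spry2, showed no shift of the kind seen for Spry1. Spry2 was at 2.64, 2.93, 2.74 and 3.62 CPM in wt, 2.68, 2.15, 2.52 and 3.20 CPM in Zmat3-/-, and 2.21, 3.39 and 4.50 CPM in TKO mice, with all groups overlapping. Its log2FC against wt was -0.17 (SE 0.207) in Zmat3-/- and 0.12 (SE 0.286) in TKO thymocytes, -0.069 and 0.24 against wt mice 1 and 2, and -0.29 and 0.0044 against wt mice 3 and 4. The difference between Spry1 and Spry2 in their response was not tested, because Spry1 was chosen for its response.

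Both Spred genes, whose products bring the RAS inhibitor neurofibromin to the membrane, were lowest in wt mice 1 and 2. Spred1 was at 19.5, 23.3, 34.9 and 31.1 CPM in wt, 35.1, 35.8, 36.8 and 29.3 CPM in Zmat3-/-, and 40.8, 42.9 and 47.2 CPM in TKO mice. The TKO mice lay above all other mice, and wt mice 3 and 4 lay within the Zmat3-/- range. Its log2FC was 0.33 (SE 0.194) in Zmat3-/- and 0.64 (SE 0.214) in TKO against wt thymocytes, 0.69 and 1.00 against wt mice 1 and 2, and 0.037 and 0.34 against wt mice 3 and 4. Spred2 was at 19.2, 23.1, 46.2 and 45.6 CPM in wt, 40.3, 44.7, 41.6 and 42.5 CPM in Zmat3-/-, and 38.4, 45.2 and 61.5 CPM in TKO mice. Wt mice 3 and 4 were above every Zmat3-/- mouse. The log2FC of Spred2 was 0.33 (SE 0.291) in Zmat3-/- and 0.47 (SE 0.342) in TKO thymocytes, 1.01 and 1.16 against wt mice 1 and 2, and -0.14 and 0.00 against wt mice 3 and 4.

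**Figure D2:**
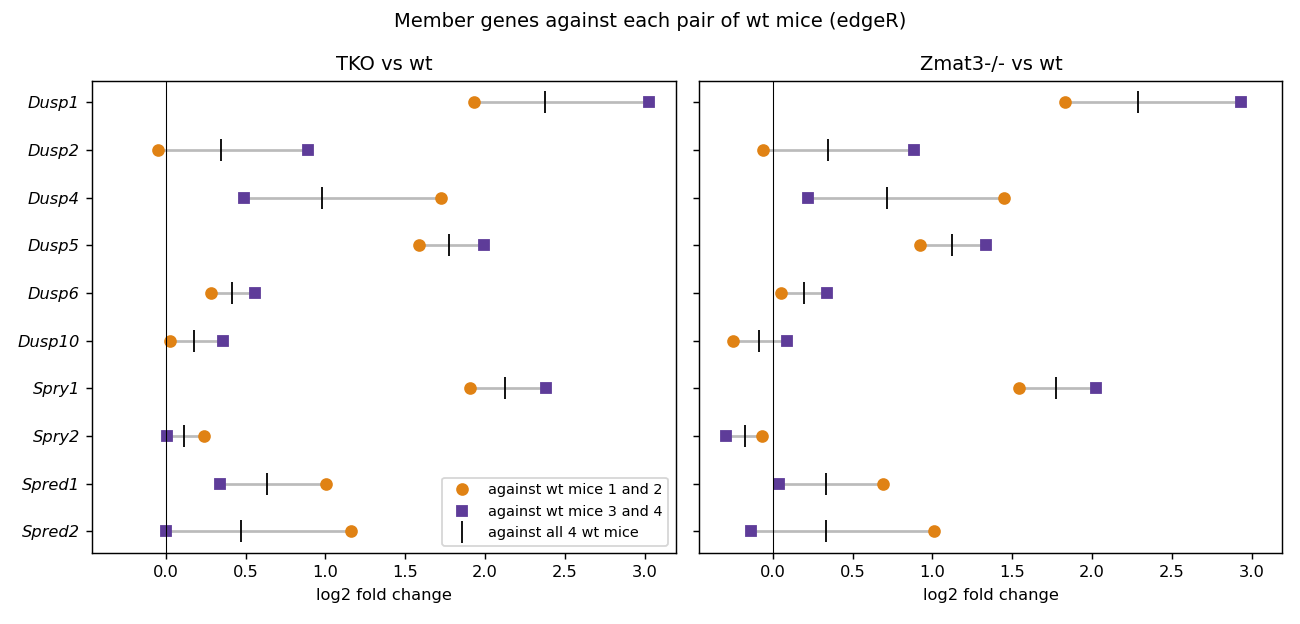
Log2 fold change of each member in TKO (left) and Zmat3-/- (right) thymocytes against wt mice 1 and 2 (circles), wt mice 3 and 4 (squares) and all 4 wt mice (ticks). Dusp1, Dusp5 and Spry1 lie to the right of 0 against either pair, whereas Dusp2, Dusp10, Spry2 and Spred2 reach or cross 0 against a pair in at least 1 panel.

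Following the thresholds of the study, a gene counted as called when its log2FC exceeded 1.5 in size and its adjusted p-value from edgeR's quasi-likelihood test over all genes was under 0.05. In TKO against wt thymocytes 3 members were called (Dusp1, Dusp5 and Spry1), all higher, where 0.241% of 13275 genes tested were called (0.196% higher). With the Xist level as a covariate Dusp5 was no longer called (log2FC 1.74), where 0.279% of genes were called. Without wt mice 3 and 4 Dusp4 was called as well (log2FC 1.73), where 5.06% of 13371 genes were called. In Zmat3-/- against wt thymocytes 2 members were called (Dusp1 and Spry1), where 0.319% of 13480 genes were called (0.2% higher). With the replicate number as a block 0 members were called in either comparison (log2FC 2.26, 1.65 and 2.15 for Dusp1, Dusp5 and Spry1 in TKO, and 2.38 and 1.78 for Dusp1 and Spry1 in Zmat3-/- mice). In the main fit of Zmat3-/- against wt thymocytes the log2FC of Dusp5, 1.12, was below 1.5. At an adjusted p-value under 0.05 and any fold, 3 members passed in that comparison, as did 0.764% of genes. Members whose groups did not overlap numbered 6 in TKO against wt mice (Dusp1, Dusp4, Dusp5, Dusp6, Spry1 and Spred1, all higher, against 6.94% of genes in that direction) and 4 in Zmat3-/- against wt mice (Dusp1, Dusp4, Dusp5 and Spry1, all higher, against 7.31%). The median log2FC of the members was 0.55 in TKO and 0.34 in Zmat3-/- against wt thymocytes, beside -0.038 and -0.026 over all genes tested. These comparisons share the wt mice, and the members were chosen with them in view, so nothing is read from these counts. The calls also changed when single mice were left out, as did the number of all genes called. In Zmat3-/- against wt mice that number was 43 with every mouse and 12 to 14 without a Zmat3-/- mouse. Without wt mouse 4, TKO mouse 2 or TKO mouse 3 no member was called in TKO against wt mice, and Spry1 alone was called without wt mouse 2 or wt mouse 3 and Dusp5 alone without TKO mouse 1. In Zmat3-/- against wt mice 0 members were called without any single Zmat3-/- mouse, and Dusp1 alone without wt mouse 4. In these fits the log2FC in TKO against wt mice ran from 2.20 to 2.56 for Dusp1, from 1.98 to 2.24 for Spry1 and from 1.51 to 2.00 for Dusp5, and in Zmat3-/- against wt mice from 2.11 to 2.47, from 1.63 to 1.87 and from 1.04 to 1.20.

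The comparison of TKO with Zmat3-/- thymocytes addressed whether loss of PUMA and p21 added to the loss of ZMAT3. Members named for a high level in TKO mice can lean towards TKO in it, since the TKO mice are the same. No member was called, either by edgeR or by DESeq2, where edgeR called 0.122% of 13132 genes, and 4 members had an unadjusted p-value under 0.05, as did 4.5% of all genes. Dusp5 showed the largest log2FC of the family, 0.65 (SE 0.183, 95% interval 0.24 to 1.05, adjusted p = 0.641 from edgeR), with TKO mouse 1 within the Zmat3-/- range. Between mice with high Xist the level of Dusp5 in TKO mouse 1 was 0.984-fold that of Zmat3-/- mice, and with low Xist the fold was 2.20. Dusp10 and Spred1 were the members higher in every TKO mouse than in every Zmat3-/- mouse, which held in the same direction for 3.49% of all genes. Their log2FC was 0.26 (SE 0.0602, 95% interval 0.13 to 0.40, adjusted p = 0.331 from edgeR) for Dusp10 and 0.30 (SE 0.0881, 95% interval 0.10 to 0.49, adjusted p = 0.733 from edgeR) for Spred1. Dusp6 had a log2FC of 0.22 (95% interval 0.025 to 0.41, adjusted p = 0.982 from edgeR). The 95% intervals, which are not adjusted for the number of genes, held 0 for the other 6 members.

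For Dusp1 the interval of this difference was narrow, from -0.10 to 0.28 around a log2FC of 0.089 (SE 0.0849, adjusted p = 0.982 from edgeR). That of Dusp2 ran from -0.18 to 0.18 and that of Spry1 from -0.020 to 0.71. The intervals were -0.075 to 0.60 for Dusp4, -0.27 to 0.85 for Spry2 and -0.094 to 0.36 for Spred2. The median log2FC of the members was 0.26, beside -0.0082 over all genes tested, and 9 members had a positive value, as did 47.3% of all genes. Nothing is read from either count.

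**Figure D3:**
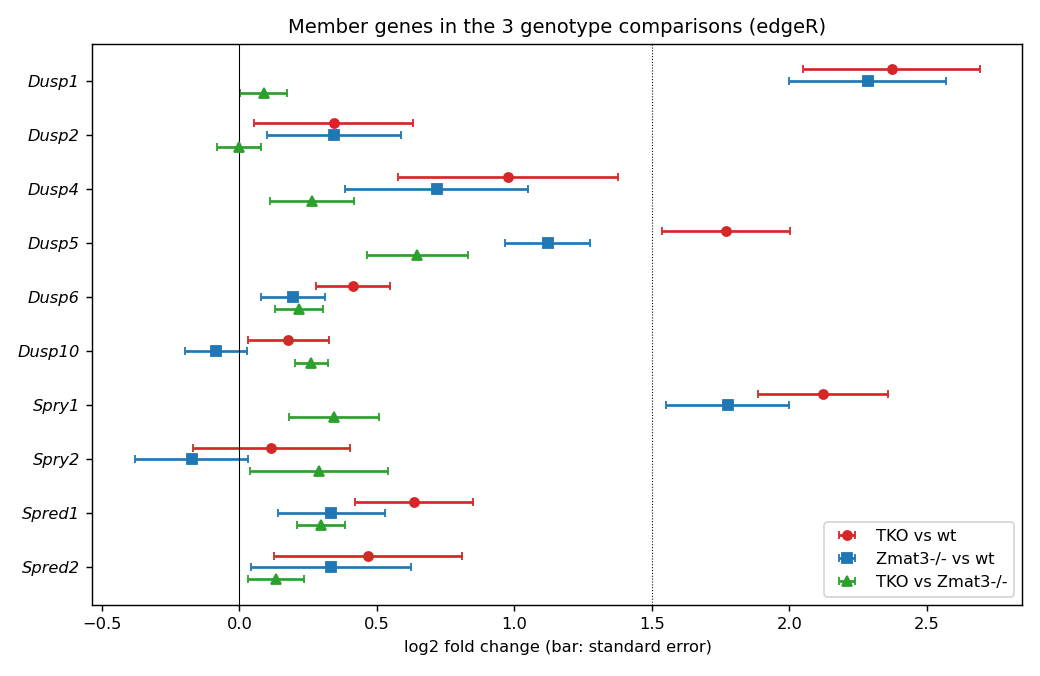
Log2 fold change of each member in the 3 comparisons (edgeR), with bars for the standard error and a dotted line at the threshold of 1.5. Dusp1 and Spry1 lie past 1.5 against wt in both mutant genotypes, Dusp5 in TKO alone, and no value of TKO against Zmat3-/- exceeds 0.65.

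The order of the family by level also differed between the genotypes. Levels were divided for this purpose by the length of all annotated exons of a gene (CPM per kb). That length is 3311 bases for Dusp1, whose longest transcript has 2313 bases, so its place depends on this choice. Over all 4 wt mice the order was Dusp2 (44.3), Dusp10 (31.4), Dusp5 (17.5), Dusp6 (13.0), Spred2 (7.26), Dusp1 (7.24), Dusp4 (5.16), Spred1 (4.01), Spry2 (1.43) and Spry1 (1.21). The ranges of neighbours overlapped except between Dusp10 and Dusp5, Dusp6 and Spred2, and Spred1 and Spry2. This order pools wt pairs that differed below the first 4 places, where Dusp2, Dusp10, Dusp5 and Dusp6 stood in both. In wt mice 1 and 2 they were followed by Dusp1 (9.95), Spred2 (4.58), Spred1 (3.16), Dusp4 (3.13), Spry1 (1.42) and Spry2 (1.34). In wt mice 3 and 4 they were followed by Spred2 (9.94), Dusp4 (7.20), Spred1 (4.87), Dusp1 (4.53), Spry2 (1.52) and Spry1 (0.989). In Zmat3-/- mice the order was Dusp2 (55.8), Dusp5 (37.8), Dusp1 (35.0), Dusp10 (29.5), Dusp6 (14.7), Spred2 (9.15), Dusp4 (8.49), Spred1 (5.05), Spry1 (4.12) and Spry2 (1.26). Overlap remained between Dusp5 and Dusp1, Spred2 and Dusp4, and Spred1 and Spry1. In TKO mice Dusp5 (62.3) stood above Dusp2 (57.6), Dusp1 (38.8), Dusp10 (36.7), Dusp6 (17.7), Dusp4 (10.7), Spred2 (10.5), Spred1 (6.43), Spry1 (5.41) and Spry2 (1.61). There the ranges of Dusp5 and Dusp2, of Dusp1 and Dusp10, and of Dusp4 and Spred2 overlapped. Dusp1 thus stood below Dusp6 in either wt pair, at place 5 in wt mice 1 and 2 and at place 8 in wt mice 3 and 4, and above Dusp6 at place 3 in both mutant genotypes. Spry1 and Spry2 took the last 2 places in either wt pair and in the mutants.

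The SD of log2 CPM was highest in wt mice for 8 of 10 members, all except Dusp5 and Spry2, as it was for 66.4% of all 13522 genes. The SD of Dusp1 was 43.2% of its mean in wt, 7.83% in Zmat3-/- and 18.6% in TKO mice. The corresponding values were 39.6%, 4.63% and 7.84% for Dusp2 and 42.8%, 4.43% and 24.5% for Spred2. Dusp4 had 46.9%, 7.31% and 36.6%. Dusp5 and Spry2 were most variable among TKO mice, with 18.2% in wt, 15.4% in Zmat3-/- and 39.4% in TKO mice for Dusp5 and 14.7%, 16.5% and 34.0% for Spry2.

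The remaining MAP kinase phosphatase, Sprouty and Spred genes were mostly scarce. Of 7 such genes, 3 passed the filter on low counts. Dusp16, a phosphatase of JNK, was at 14.3 to 17.3 CPM in wt, 17.3 to 20.3 CPM in Zmat3-/- and 18.7 to 21.6 CPM in TKO mice, with a log2FC against wt of 0.27 (SE 0.110) and 0.28 (SE 0.132). Dusp7, a cytoplasmic phosphatase of ERK, was at 20.8 to 26.5, 22.3 to 26.7 and 25.1 to 32.3 CPM. Spred3 was at 0.668 to 2.99, 1.70 to 2.25 and 1.75 to 1.94 CPM. None of the 3 was called in any comparison. Dusp8, Dusp9, Spry3 and Spry4 stayed at or below 0.833 CPM in every mouse. Of 9 atypical dual-specificity phosphatases 7 were tested and 0 were called, with a median log2FC of -0.25 in TKO and -0.099 in Zmat3-/- against wt thymocytes.

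The genes of the cascades that these proteins restrain were counted in the same fits. All 19 genes of the RAS-RAF-MEK-ERK cascade were tested and 0 were called in any comparison. In TKO against wt thymocytes 14 had a positive and 5 a negative log2FC, between -0.39 and 0.57 with a median of 0.17. In Zmat3-/- against wt thymocytes the numbers were again 14 and 5, between -0.41 and 0.46 with a median of 0.085. The 10 genes of the JNK and p38 cascades were also all tested, none was called, and their log2FC ran from -0.13 to 0.46 in TKO and from -0.046 to 0.33 in Zmat3-/- against wt thymocytes.

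Transcripts known to respond to ERK included some with the pattern of Dusp1. Of 17 such genes 15 were tested. None was called in the main edgeR fits. In these fits Nr4a1 alone had an adjusted p-value under 0.05 against wt, in both mutants (0.294% of all genes in TKO and 0.764% in Zmat3-/- mice). In each mutant 11 had a positive and 4 a negative log2FC against wt, with a median of 0.40 in TKO and 0.41 in Zmat3-/- thymocytes. Nr4a1, an orphan nuclear receptor induced by T cell receptor signals, was at 105, 112, 76.7 and 82.1 CPM in wt, 220, 220, 167 and 210 CPM in Zmat3-/-, and 206, 209 and 230 CPM in TKO mice. The wt mice lay below all mutant mice, with a log2FC of 1.13 (SE 0.149) in Zmat3-/- and 1.15 (SE 0.158) in TKO thymocytes.

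Fos and Junb, subunits of the transcription factor AP-1, had the largest differences of that list. Fos was at 33.3, 40.2, 2.78 and 3.00 CPM in wt, 184, 190, 141 and 219 CPM in Zmat3-/-, and 210, 124 and 219 CPM in TKO mice. Junb was at 217, 186, 32.3 and 31.1 CPM in wt, 540, 619, 505 and 614 CPM in Zmat3-/-, and 609, 482 and 572 CPM in TKO mice. Both genes, like Dusp1, were lowest in wt mice 3 and 4, intermediate in wt mice 1 and 2 and highest in the mutants, and their fold between the wt pairs was wider than that of Dusp1. They are immediate early genes, whose part in the level of Dusp1, Dusp5 and Spry1 was not tested. Nr4a1, Fos and Junb were singled out after their values were seen. The 4 genes of the list with a negative log2FC against wt were the same in both mutants. They were Egr1 (-0.32 in TKO and -0.34 in Zmat3-/- thymocytes), Egr2 (-0.67 and -0.58), Egr3 (-0.28 and -0.33) and Myc (-0.64 and -0.61). In TKO against Zmat3-/- thymocytes 9 ERK-responsive genes had a positive and 6 a negative log2FC, the median was 0.023 and 0 were called.

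**Figure D4:**
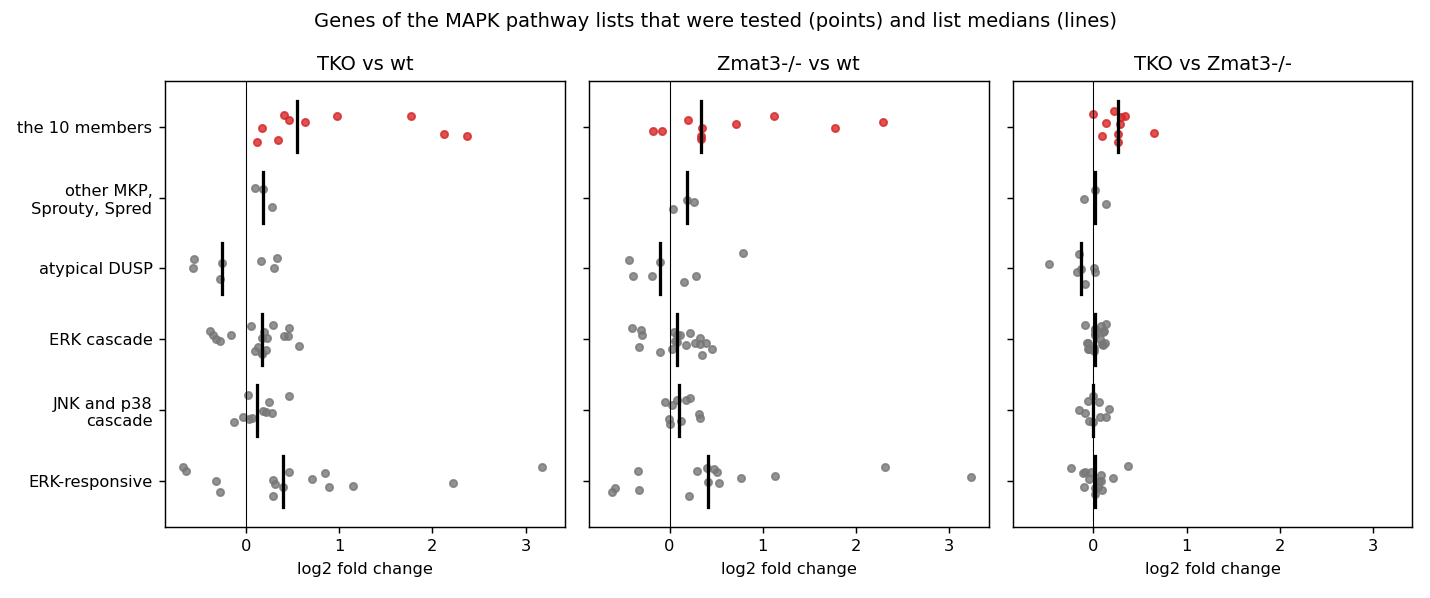
Log2 fold change of the tested genes of each list in the 3 comparisons, with a point for each gene and a line at the list median. The cascade genes lie between -0.41 and 0.57 in every panel, whereas the members and the ERK-responsive genes reach past 2 against wt and stay below 1 in TKO against Zmat3-/- thymocytes.

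Genes whose profile over the 11 mice lay nearest to those of Dusp1, Dusp5 and Spry1 were found by the root-mean-square (RMS) difference of centred log2 CPM over 13522 genes. Nearest to Dusp1, which itself had an RMS deviation of 1.23, were Plk2 (0.294), Trav14d-3-dv8 (0.366) and Ksr2 (0.367). Plk2 encodes a polo-like kinase. Nearest to Dusp5 (own deviation 0.782) were Tob1 (0.323), an antiproliferative protein, the ubiquitin ligase Siah2 (0.335) and Arc (0.342). Nearest to Spry1 (own deviation 0.983) were the pseudokinase Trib1 (0.264), Rgs2 (0.313), a regulator of G-protein signalling, and Tnfaip3 (0.334), an inhibitor of NF-kB. Of the other members, the nearest to Dusp1 was Spry1 and the nearest to Spry1 was Dusp1 (0.402), and the nearest to Dusp5 was Spry1 (0.454).

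Position and overlap with other genes were examined for the same members. Dusp1 lies 2.53 Mb from Cdkn1a on chromosome 17, close to the locus targeted in TKO mice, and Spry1 lies 5.27 Mb from Zmat3 on chromosome 3. Of 44 genes tested between Dusp1 and Cdkn1a, 2 (4.55%) had an adjusted p-value under 0.05 in TKO against Zmat3-/- thymocytes, both lower. Of all genes tested, 0.0761% were lower at that threshold. Between Spry1 and Zmat3, 0 of 33 genes had such a value in Zmat3-/- against wt thymocytes, as had 0.764% of all genes in either direction. Exons of Dusp5 overlapped an antisense gene over 547 bases, that of Spry1 another over 710 bases, and Dusp1 shared 11 exon bases with Ergic1 on the opposite strand. The library kit does not mark strand, so reads from these stretches cannot be told apart. The antisense gene of Spry1 had 0 to 5 counts in wt mice, beside 57 to 163 of Spry1, 13 to 31 in Zmat3-/- mice, beside 327 to 412, and 14 to 88 in TKO mice, beside 310 to 1233. It thus had at most 9.48% of the count of Spry1 in the same mouse, and that of Dusp5 at most 1.43% of the count of Dusp5. Their part in the results was not tested.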

How the data were processed

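Thymocyte RNA of 11 mice was sequenced. The authors ran the reads through Salmon with GRCm38.p6 and GENCODE vM25 annotation and deposited the estimated counts per gene, in whole numbers and without normalization. GENCODE M21 named 54166 of the 54418 genes in the table and gave positions and classes. Mice were grouped by the genotype in their labels. Each label number is a separate mouse.

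For each pair of genotypes edgeR 4.0.16 was run (limma 3.58.1, R 4.3.3), using TMM factors and the quasi-likelihood F-test, two-sided, with Benjamini-Hochberg adjustment over all genes tested. A gene was tested if the number of mice at or above 20 counts (in units of the smallest library) was at least the size of the smaller group. As in one step of the study, 1628 genes were removed by class: Xist, Y-linked genes, rRNA and non-coding immunoglobulin genes. Its removal of obsolete Entrez identifiers was not repeated. The study also adjusted for sex and surrogate variables. The labels give no sex, so these entered as alternatives only, with DESeq2 1.42.0 and sva 3.50.0 and the Xist level in place of sex. Standard errors were obtained from the log2FC and the F statistic. Profiles were compared on log2 CPM with a prior count of 2. Where the groups share replicate numbers, deviations of same-numbered mice from their group means correlated at 0.340, 0.128, 0.259 and 0.301 in Zmat3-/- and wt mice, all over 0.1. Differently numbered mice within the 1, 2 and 3, 4 split correlated as well (0.380, 0.184, 0.160 and 0.248), so the numbers cannot be told apart from that split. The pairing comes from the label numbers alone.

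The members and lists were chosen with earlier results of these data known. Genes named were all members, the rest of their family, genes of the pathway lists called in the main fits (none), and the 3 nearest profiles to Dusp1, Dusp5 and Spry1. Nr4a1, Fos, Junb, Egr1, Egr2, Egr3, Myc, the stromal genes, Ighm and the levels of the targeted genes were added after their values were seen. The other lists were the ERK cascade, JNK and p38 cascades, ERK-responsive genes, atypical phosphatases and markers of thymocytes, mature thymocytes, stroma, myeloid, B and erythroid cells. Alternatives were DESeq2, RLE size factors, other filters, all genotypes in one fit, the block, the Xist level, a surrogate variable, the threshold without a fold, each mouse left out, and either wt pair left out. The scripts were tested on simulated data. Intervals are at 95%. Low counts limit Spry1 and Spry2 most.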

Additional observations from a re-analysis of the deposited data

Results flagged for a closer look

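Of 35 groups of 4 mice examined, 1 held a sample far from the others. Spry3 was counted once in wt mouse 3 (0.0415 CPM) and not at all in the other wt mice, so that the gap made up the whole range (ratio 1.0). It rests on a count of 1. Chance flags about 1 in 20 groups.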

How the results depend on the processing

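With the replicate number as a block, 0 members were called in TKO against wt mice (3 without it) and 0 in Zmat3-/- against wt mice (2 without it), and over all genes 16 and 8 in place of 32 and 43. The numbers are only shared between TKO and the other mice, where same-numbered deviations correlated at 0.0724, 0.299 and 0.405 with wt and at 0.196, 0.0124 and 0.173 with Zmat3-/- mice. With the Xist level as a covariate 2 members were called in TKO against wt mice, where 0.279% of all genes were called. Without wt mice 3 and 4 there were 4, where 5.06% of all genes were called (0.241% in the main fit). The block changed no other call of members or pathway genes. With each mouse left out in turn, members called ranged from 0 to 3 in TKO against wt and from 0 to 2 in Zmat3-/- against wt mice.

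Other pathway genes called, 0 as reported, rose to 1 in either comparison with wt at any fold change. DESeq2 gave 1 in TKO and 2 in Zmat3-/- against wt mice, and 2 and 2 with the Xist level and a surrogate variable added. A surrogate variable in edgeR gave 2 and 2. Without wt mice 1 and 2 the numbers were 2 and 2, and without wt mice 3 and 4 they were 1 and 2. Both of these alternatives were chosen after seeing the data. Over all genes DESeq2 called 103 in TKO and 122 in Zmat3-/- against wt mice, 167 and 210 with the Xist level and a surrogate variable, edgeR with a surrogate variable 155 and 212, and the fit of all genotypes 70 and 71. Without a filter on low counts 51 genes were called in TKO against wt and 45 in TKO against Zmat3-/- mice (16 as reported), and a minimum of 100 counts left 20 in Zmat3-/- against wt mice. Leaving out a mouse gave 15 to 35 and 12 to 47, and leaving out wt mice 1 and 2 gave 245 and 439 and leaving out wt mice 3 and 4 gave 676 and 733. The cause of these changes was not tested.

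Directions turned only for Spry2, Dusp10, Spred2 and Dusp2. Spry2 in TKO against wt mice ranged from -0.064 to 0.36 with a mouse left out. Dusp10 in Zmat3-/- against wt mice ranged from -0.15 to 0.0063 and was 0.087 without wt mice 1 and 2, where Spred2 was -0.14. Dusp2 without wt mice 3 and 4 was -0.049 in TKO and -0.060 in Zmat3-/- mice. Dusp2 in TKO against Zmat3-/- mice was 0.0012 with DESeq2, 0.041 with the Xist level and a surrogate variable added, 0.0020 with RLE factors, 0.012 without a filter, 0.0076 in the fit of all genotypes, 0.0031 with the Xist level, 0.042 with a surrogate variable and -0.082 to 0.055 with a mouse left out. Dusp1, Dusp5 and Spry1 stayed positive against wt under every alternative run. In TKO against Zmat3-/- mice the adjusted p of Dusp5 ranged from 0.00418 (edgeR without a filter) to 1.00 and that of Dusp10 from 0.0238 (DESeq2) to 1.00, with no log2FC above 1.5.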
